A study of Macaca mulatta with 13 samples.

Results

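GAS6 and PROS1 are the ligands, and TYRO3, AXL and MERTK the receptors, of a small signalling family named TAM after its 3 receptors. These 5 genes, of 14132 with a probe set of their own on the array, were chosen by their symbols and had 9 of the 52766 probe sets other than controls: GAS6 had 2, PROS1 1, AXL 3, MERTK 2 and TYRO3 1. Transcript levels came from bulk tissue of a thigh muscle, the vastus lateralis, in old male rhesus monkeys. The 8 calorie-restricted (CR) animals were 27 to 32 years old and the 5 animals on the control diet 27 to 30 years, and the time under restriction is given as 18.5 years. The series holds 13 one-colour Affymetrix arrays, 1 per animal. The labels give no genetic or drug treatment, and the number of arrays limits the precision.

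GAS6 and protein S (PROS1) are secreted vitamin K-dependent proteins that bind phosphatidylserine on dying cells and membrane fragments with one end and a TAM receptor with the other. The receptors are tyrosine kinases: MERTK and AXL serve the uptake of dead cells by macrophages and dampen inflammatory signalling, and AXL is also found on fibroblasts and vascular cells. GAS6 binds all 3 receptors, whereas PROS1 binds TYRO3 and MERTK. In muscle, macrophages clear fibre debris after injury.

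GAS6 was picked from the comparison of the diets, where its probe set MmugDNA.19559.1.S1_at had the rank 5 by p among genes with a higher signal in CR. All differences between the diets are therefore given for the 5 genes as a description, with no test. In limma's moderated test over 26383 probe sets, 0% passed a Benjamini-Hochberg adjusted p of 0.05, and 0 of the 8 member probe sets in that test did. At an unadjusted p under 0.05 stood 2 of the 8, both of GAS6, where the share over all probe sets was 2.43%, with 1.25% higher and 1.18% lower in CR. GAS6 had 1 probe set on each side. An exact rank-sum test over the same probe sets gave 655 at an unadjusted p under 0.05. Its 0 adjusted calls add nothing, because 1287 splits of the animals give too coarse a p for an adjustment over this many probe sets. The ninth probe set, of MERTK, was too dim for the test. Signals below are MAS5 signals on a linear scale, differences are CR minus control on the log2 scale, and levels of different probe sets are not comparable.

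The 2 GAS6 probe sets went opposite ways. For MmugDNA.19559.1.S1_at the 8 CR animals ran from 565 to 864 with a median of 711. The 5 controls had 438, 357, 555, 458 and 560. Every CR animal lay above every control, although the lowest CR animal exceeded the highest control by little. Groups without overlap occurred for 0.0720% of all probe sets tested, and with CR higher for 0.0417%. The mean log2 signal was 9.45 ± 0.20 in CR (SD, n = 8) and 8.87 ± 0.27 in controls (SD, n = 5), a difference of 0.58 ± 0.16 (SE) or 1.5-fold.

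For the other GAS6 probe set, MmugDNA.20377.1.S1_at, the CR animals ran from 626 to 2377 with a median of 1172. The controls had 1508, 1529, 1488, 3628 and 1632. Here 7 of 8 CR animals lay below every control, and only CR replicate 2, at 2377, did not, lying below control replicate 4 alone. The mean log2 signal was 10.11 ± 0.58 in CR (SD, n = 8) and 10.83 ± 0.56 in controls (SD, n = 5), a difference of -0.73 ± 0.29 (SE). Control replicate 4 held the highest value of all animals, and without it the difference was -0.48.

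**Figure D1:**
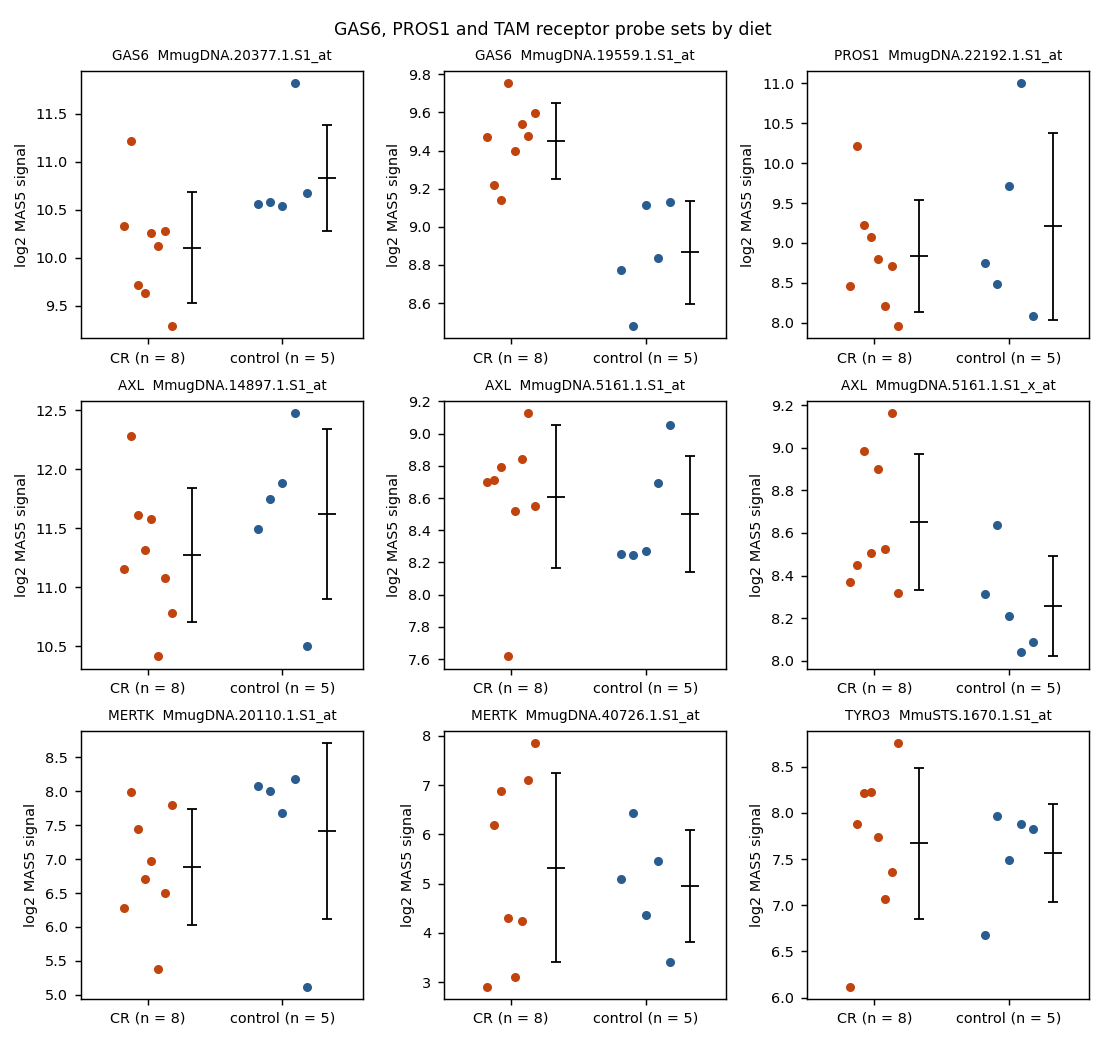
Log2 MAS5 signal of each probe set of GAS6, PROS1, AXL, MERTK and TYRO3. Points are animals (8 CR, 5 control), and the bar beside them is the mean with 1 SD. The GAS6 probe set MmugDNA.19559.1.S1_at shows no overlap between the diets, the other GAS6 probe set has 7 of 8 CR animals below every control, and the remaining panels overlap.

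The pair of GAS6 probe sets also did not follow each other between animals. With diet means removed, Pearson's r across the 13 animals was -0.29 (permutation p = 0.355, adjusted p = 0.713 over 5 pairs of probe sets of one gene) and Spearman's rho -0.31 (permutation p = 0.311). When both were averaged per animal, the GAS6 difference was -0.072. The direction of GAS6 thus differed with the probe set, and the sequences the probe sets measure were not used here.

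PROS1 was measured by 1 probe set, MmugDNA.22192.1.S1_at. The CR animals ran from 248 to 1193 with a median of 432, and the controls had 430, 360, 836, 2058 and 271. The groups overlapped almost entirely, and the medians lay close together. The log2 difference was -0.37 ± 0.44 (SE). It turned to 0.075 without control replicate 4, the animal with 2058.

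AXL had 3 probe sets. For MmugDNA.14897.1.S1_at, used for AXL below, the CR animals ran from 1364 to 4976 with a median of 2409. The controls had 2885, 3445, 3779, 5702 and 1446. Of the CR animals 7 of 8 lay below the control mean (of log2 signals), yet the groups overlapped, and the difference was -0.35 ± 0.31 (SE, log2). Without control replicate 4 it was -0.13, and without control replicate 5, the animal with 1446, it was -0.63.

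The other AXL probe sets had positive differences. MmugDNA.5161.1.S1_at differed by 0.11 ± 0.24 (SE, log2), with 196 to 560 in CR and 303 to 530 in controls. But it differed by -0.12 with RNA quality ratios as covariates, and by -0.034 with a replicate number block, over animals that share numbers only. Its companion MmugDNA.5161.1.S1_x_at, where the suffix x marks probes that may match further transcripts, differed by 0.39 ± 0.19. In that companion the CR animals ran from 319 to 573 and the controls had 318, 398, 296, 263 and 272, so that 4 of 5 controls lay below every CR animal. Across animals with diet means removed, the 3 pairs of AXL probe sets had r of -0.24, 0.11 and 0.12 (adjusted permutation p from 0.713 to 0.735).

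MERTK had 2 probe sets. For MmugDNA.20110.1.S1_at the CR animals ran from 41.7 to 255 with a median of 115, and the controls had 271, 256, 206, 289 and 34.8. Its geometric mean was 118 in CR and 170.5 in controls, not far above the lowest mean kept for the test, 107. In this probe set 3 of 5 controls lay above every CR animal, while control replicate 5 lay below every CR animal. The difference was -0.53 ± 0.53 (SE, log2), and -1.10 without control replicate 5. The dim probe set MmugDNA.40726.1.S1_at ran from 7.53 to 231 in CR and from 10.7 to 86.2 in controls, with a difference of 0.37 ± 0.85, or -0.014 without control replicate 5. The 2 MERTK probe sets had r = 0.59 and rho = 0.62 across animals with diet means removed (permutation p = 0.0266 and 0.0328, adjusted p = 0.133 and 0.164).

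TYRO3, the receptor best known from the nervous system, was measured by MmuSTS.1670.1.S1_at. The CR animals ran from 69.5 to 432 with a median of 224, and the controls had 102, 251, 179, 235 and 226. The medians were almost the same, with the wider spread in CR. The difference was 0.10 ± 0.38 (SE, log2), and -0.12 without control replicate 1.

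**Figure D2:**
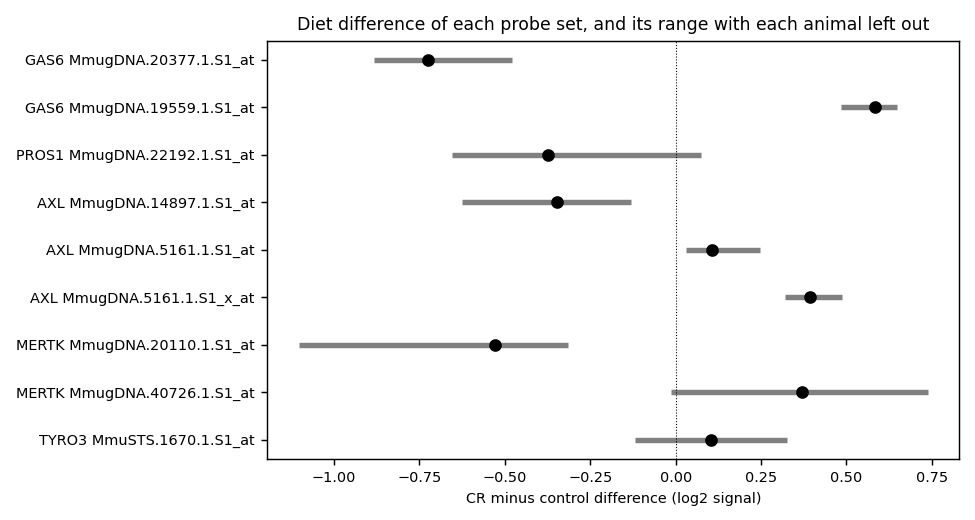
CR minus control difference in log2 signal for each probe set (point) and the range over the 13 fits that leave out 1 animal each (bar). Both GAS6 bars stay on their own side of 0, from -0.88 to -0.48 and from 0.49 to 0.65. So do those of AXL and the brighter MERTK probe set, whereas the bars of PROS1, TYRO3 and the dim MERTK probe set cross 0. GAS6 was picked from this comparison of the diets.

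How the 5 genes varied together between animals is separate from the diet difference, because diet means were removed first. The brightest probe set of each gene was used, and p-values come from 100000 permutations of animals within diets, two-sided, adjusted over the 10 pairs of genes. PROS1 and AXL varied together, with r = 0.88 (permutation p = 0.00026, adjusted p = 0.0026) and rho = 0.85 (permutation p = 0.00048, adjusted p = 0.0048). Both genes were highest in control replicate 4 among controls and in CR replicate 2 among CR animals. Without the 2 animals farthest in PROS1, which were these 2, r was 0.79, with a permutation p of 0.0137 and an adjusted p of 0.10. Among the 8 CR animals alone r was 0.92 (exact permutation p = 0.00179, adjusted p = 0.0179). With the AXL probe sets averaged, it was 0.64 and missed the adjusted threshold (adjusted permutation p = 0.115). The 5 controls are too few for a value of their own.

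AXL and MERTK had r = 0.78 (permutation p = 0.00554, adjusted p = 0.0277) and rho = 0.59 (permutation p = 0.0461, adjusted p = 0.23). Without the 2 animals farthest in AXL r was 0.44 and no longer passed (adjusted permutation p = 0.426). With probe sets averaged it was also 0.44 (adjusted permutation p = 0.389). Among the 8 CR animals alone it was 0.68 (exact permutation p = 0.0625). The AXL and MERTK relation also missed the adjusted threshold without control replicate 5, CR replicate 2 or CR replicate 6, with r of 0.62, 0.75 and 0.72.

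GAS6 and PROS1 had r = 0.70 (permutation p = 0.0125, adjusted p = 0.0418), but rho was 0.32 (permutation p = 0.263, adjusted p = 0.438). Without control replicate 4 and CR replicate 2, the 2 animals farthest in GAS6, r was 0.0071, so the relation rested on them. Among the 8 CR animals alone r was 0.65 (exact permutation p = 0.0842, adjusted p = 0.21). With the GAS6 probe sets averaged r was 0.65 (adjusted permutation p = 0.144), and by the one that was higher in CR it was -0.21. With each animal left out in turn, it passed in 4 of 13 cases, without control replicate 3 or CR replicate 1, 3 or 4. The remaining 7 pairs did not pass, with r from -0.24 for GAS6 and TYRO3 to 0.58 for GAS6 and AXL, and TYRO3 passed with none of the other 4 genes.

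**Figure D3:**
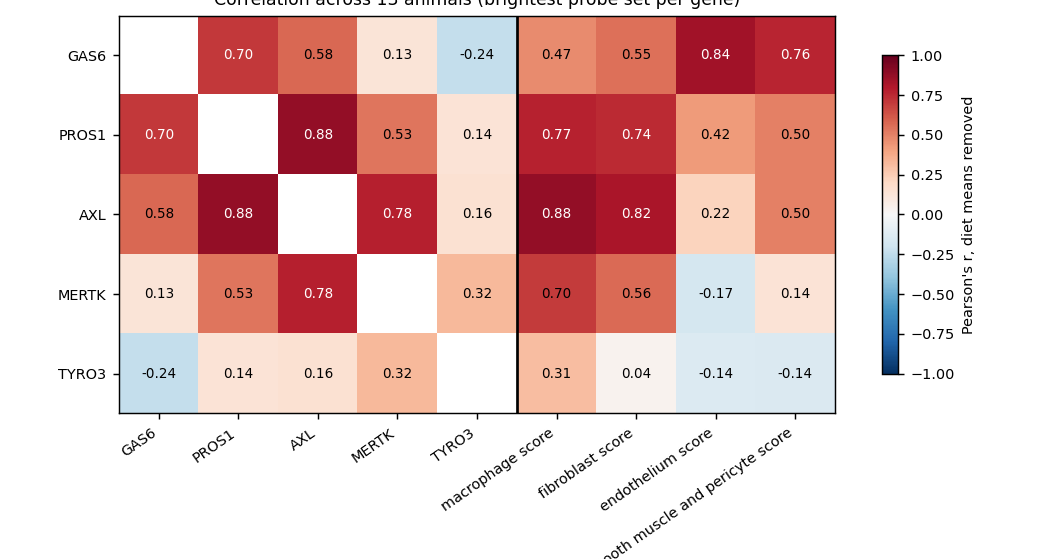
Pearson's r across the 13 animals with diet means removed, for each of the 5 genes (rows) with the other genes and with 4 marker scores (columns). PROS1, AXL and MERTK are high with the macrophage score, from 0.70 to 0.88, GAS6 is highest with the endothelium score at 0.84, and TYRO3 stays between -0.24 and 0.32.

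Bulk muscle holds several cell types, and fewer cells of a type cannot be told apart from less RNA per cell. Each gene was therefore set against the mean z score of marker lists for macrophages, fibroblasts, endothelium, and smooth muscle with pericytes, again with diet means removed and adjusted over 20 relations. Of the 20, 7 passed on Pearson's r and 4 on rank order. Many genes followed these scores. The share of genes outside the list with an r at least as high was 1.48% for AXL with fibroblast, 1.75% for PROS1 with macrophage, 1.76% for GAS6 with smooth muscle and pericyte, 3.94% for PROS1 with fibroblast and 4.01% for MERTK with macrophage, and it is given below for the remaining relations. The lists are read from the same arrays, so a quality shared by whole arrays enters both sides.

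AXL, by its brightest probe set, followed the macrophage score with r = 0.88 (permutation p = 5e-05, adjusted p = 0.001) and rho = 0.91 (permutation p = 0.00019, adjusted p = 0.00127). Of 9801 genes outside the list, AXL among them, 0.194% had an r this high with that score. The relation was 0.84 without the 2 animals farthest in the score (adjusted permutation p = 0.0225). It was 0.95 in the 8 CR animals alone (exact permutation p = 0.00176, adjusted p = 0.0352). With the 3 AXL probe sets averaged, which did not follow each other, it was 0.64 and no longer passed (adjusted permutation p = 0.0974). AXL also followed the fibroblast score, with r = 0.82 (permutation p = 0.00313, adjusted p = 0.0149) and rho = 0.68 (permutation p = 0.0184, adjusted p = 0.0734). Without the 2 animals farthest in the fibroblast score the r of AXL was 0.67 (adjusted permutation p = 0.165), and in the 8 CR animals alone 0.74 (exact permutation p = 0.0381, adjusted p = 0.153).

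PROS1 had r = 0.77 with the macrophage score (permutation p = 0.00035, adjusted p = 0.00233) and rho = 0.87 (permutation p = 0.00016, adjusted p = 0.00127). Without the 2 farthest animals r was 0.80, and in the 8 CR animals alone 0.88 (exact permutation p = 0.00672, adjusted p = 0.0448). With the fibroblast score PROS1 had r = 0.74 (permutation p = 0.0111, adjusted p = 0.0316) and rho = 0.63 (permutation p = 0.0399, adjusted p = 0.114). Without the 2 animals farthest in the score that relation was 0.47 and no longer passed (adjusted permutation p = 0.413). In the 8 CR animals alone it was 0.66 (exact permutation p = 0.0811). It also missed the adjusted threshold without control replicate 1, 4 or 5 (r of 0.75, 0.56 and 0.69) and without CR replicate 6 or 8 (0.73 and 0.71).

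MERTK had r = 0.70 with the macrophage score (permutation p = 0.00372, adjusted p = 0.0149) and rho = 0.62 (permutation p = 0.0334, adjusted p = 0.111). Without the 2 animals farthest in the score it was 0.55 and no longer passed (adjusted permutation p = 0.326), with fewer animals. In the 8 CR animals alone it was 0.77 (exact permutation p = 0.0271, adjusted p = 0.135), and with both MERTK probe sets averaged 0.46 (adjusted permutation p = 0.286). The MERTK relation also missed the adjusted threshold without control replicate 5 or CR replicate 6, at r = 0.735 and 0.60. These animals had the lowest signals of this MERTK probe set, 34.8 and 41.7. TYRO3 had r from -0.14 to 0.31 with the 4 scores, and none of them passed.

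The macrophage list had 11 of 13 markers tested, among them CD68, CSF1R, MRC1 and the complement C1q genes, while CD163 and MARCO were not. The summed signal of the 11 ran from 3938 to 13745 in CR, highest in CR replicate 2. In controls the sum ran from 4872 to 9952, highest in control replicate 4. The medians of the sum were 6930 in CR and 6723 in controls. The median log2 difference of these markers between the diets was -0.096, against -0.012 over all probe sets tested. None passed limma's test, where the share over all probe sets was 0%. The fibroblast list had 9 of 10 tested. Its summed signal ran from 43191 to 101550 in CR (median 78012) and from 37566 to 162590 in controls (median 70782). The median difference of the fibroblast markers was -0.19, with 0 past the test, whose share over all probe sets was 0%.

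GAS6, by its probe set MmugDNA.20377.1.S1_at, followed vessel markers. With the endothelium score r was 0.84 (permutation p = 0.00015, adjusted p = 0.0015) and rho 0.85 (permutation p = 9e-05, adjusted p = 0.00127). Of 9803 genes outside the list 0.306% had an r this high with it, GAS6 among them. Without the 2 animals farthest in the score r was 0.73 (adjusted permutation p = 0.0569), and in the 8 CR animals alone 0.87 (exact permutation p = 0.00481, adjusted p = 0.0448). With the smooth muscle and pericyte score r was 0.76 (permutation p = 0.0108, adjusted p = 0.0316) and rho 0.88 (permutation p = 0.00052, adjusted p = 0.0026). That relation was 0.83 without the 2 animals farthest in the score, and 0.64 in the 8 CR animals (exact permutation p = 0.0896). With both GAS6 probe sets averaged it was 0.66 (adjusted permutation p = 0.0974). It missed the adjusted threshold without control replicate 4 or 5 (r of 0.65 and 0.76) and without CR replicate 1 or 8 (0.75 and 0.72).

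The same GAS6 probe set that followed the vessel markers was the one with the lower CR mean, and the markers' differences were below 0 too by the brightest probe set of each gene. Of the endothelium list 9 of 11 markers were tested, with KDR and ESAM not. By the brightest probe set of each gene, all 9 had a difference below 0, with a median of -0.33, but a further probe set lay above 0 for VWF (0.14), CDH5 (0.55) and TEK (0.26). Further probe sets, here and for the genes below, include those too dim for the test. Of the smooth muscle and pericyte list 6 of 9 were tested, with ACTA2, PDGFRB and RGS5 not. By their brightest probe sets the 6 lay below 0 with a median of -0.42, but further probe sets lay above 0 for MYH11 (up to 0.39), CSPG4 (0.012 to 0.14) and NOTCH3 (0.27). None of these markers passed limma's test, whose share over all probe sets was 0%. At an unadjusted p under 0.05 stood 0 of them, where that share was 2.43%. The summed endothelium signal ran from 4994 to 12157 in CR (median 7680) and from 7517 to 20122 in controls (median 7687). For smooth muscle and pericyte the sum ran from 6397 to 23931 in CR (median 9535) and from 8643 to 29180 in controls (median 11148). The part of these markers in the GAS6 difference was not tested. The GAS6 probe set that was higher in CR had r = -0.13 with the endothelium score and -0.30 with the smooth muscle and pericyte score (adjusted permutation p = 0.713 and 0.578).

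**Figure D4:**
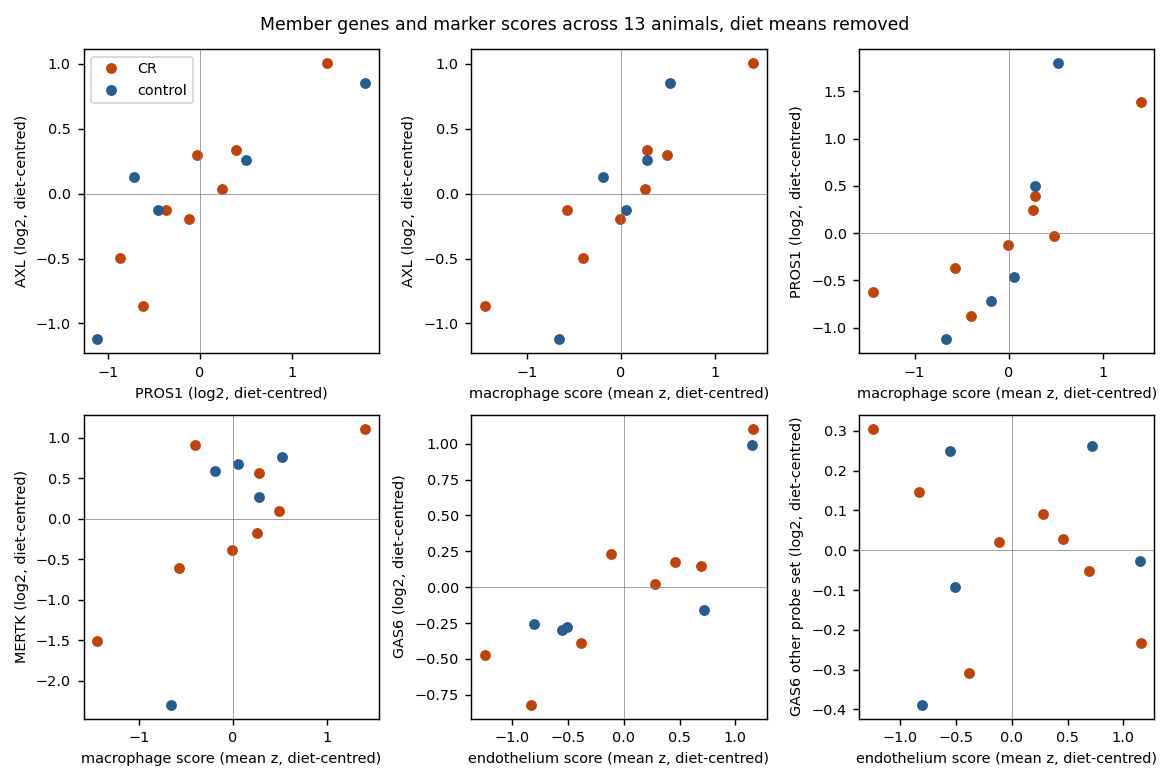
Each point is 1 of the 13 animals, with its diet mean removed: log2 signal of a gene (y axis) against the log2 signal of another gene or a marker score (x axis). AXL and PROS1 rise along the macrophage score (r of 0.88 and 0.77) and GAS6 along the endothelium score (0.84), while the other GAS6 probe set in the last panel has no such trend (-0.13).

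The remaining marker lists describe the tissue. Muscle fibre markers were well measured, as the label of the tissue calls for, with 8 of 11 tested and a sum from 421560 to 734550 in CR and from 294440 to 706750 in controls. The median difference was -0.067 for muscle fibre, -0.66 for 3 of 5 adipocyte markers, -0.17 for 4 of 6 Schwann cell markers and -0.45 for the 1 of 7 lymphocyte markers tested. None passed limma's test, where the share over all probe sets was 0%. At an unadjusted p under 0.05 stood only TTN, 1 of the 8 muscle fibre markers tested, where that share was 2.43%. TTN differed by -0.70 ± 0.32 (SE, log2, other probe set -0.54). Control replicate 4 had the highest summed signal among controls for the lists of macrophages, endothelium, smooth muscle and pericytes, fibroblasts, adipocytes and Schwann cells.

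Beyond the 5 genes, 6 lists held the proteins around TAM signalling, with 71 genes, of which 43 had a probe set in the test. None of the 43 passed limma's test in either direction, where the share over all probe sets was 0%, and 0 reached an unadjusted p under 0.05, where that share was 2.43%. Of the 43 differences, by the brightest probe set of each gene, 14 were above 0 and 29 below. The median over all probe sets tested was -0.012. All genes were read from the same animals, so this count is a description with no test.

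Of the enzymes that make the ligands active and the proteases that shed the receptors, 4 of 7 genes were tested, with a median log2 difference of 0.045. GGCX, the carboxylase that gives GAS6 and PROS1 their Gla residues, differed by 0.096 ± 0.13 (SE, other probe sets -0.39 to 0.24). ADAM10, a protease that cleaves receptors from the membrane, differed by -0.13 ± 0.27 (other probe sets -0.23 to -0.090). Other Gla proteins had 5 of 12 tested and a median of -0.020, with the prothrombin gene F2 at 0.70 ± 0.38 (other probe set 0.12) and the factor VII gene F7 at -0.17 ± 0.30 (other probe set -0.52).

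Other receptors and bridging proteins for phosphatidylserine had 8 of 15 genes tested, 7 of them below 0, with a median of -0.27. CD36, a scavenger receptor that also takes up fatty acids, differed by -0.77 ± 0.53 (SE, log2), with 298 to 3653 in CR and 480 to 2952 in controls. STAB1, a scavenger receptor of macrophages and endothelium, differed by 0.17 ± 0.33, but its other probe set by -0.77. Genes of phosphatidylserine exposure had 5 of 8 tested and a median of -0.17. The flippase gene ATP11A differed by -0.33 ± 0.20 (other probe sets -0.45 to 0.70) and the scramblase family gene PLSCR3 by 0.093 ± 0.22.

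Downstream, engulfment genes and the nuclear receptors that act in clearing macrophages had 10 of 14 tested and a median of 0.0054. ELMO1, part of the complex that activates Rac during engulfment, differed by -0.34 ± 0.23 (SE, log2), and the liver X receptor gene NR1H2 by 0.23 ± 0.19. Receptor signalling and feedback genes had 11 of 15 tested and a median of -0.083. PIK3R1, the regulatory subunit of PI3-kinase, differed by -0.54 ± 0.32 (other probe sets -0.96 to -0.70). TWIST1, a transcription factor induced downstream of AXL, differed by 0.16 ± 0.42.

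**Figure D5:**
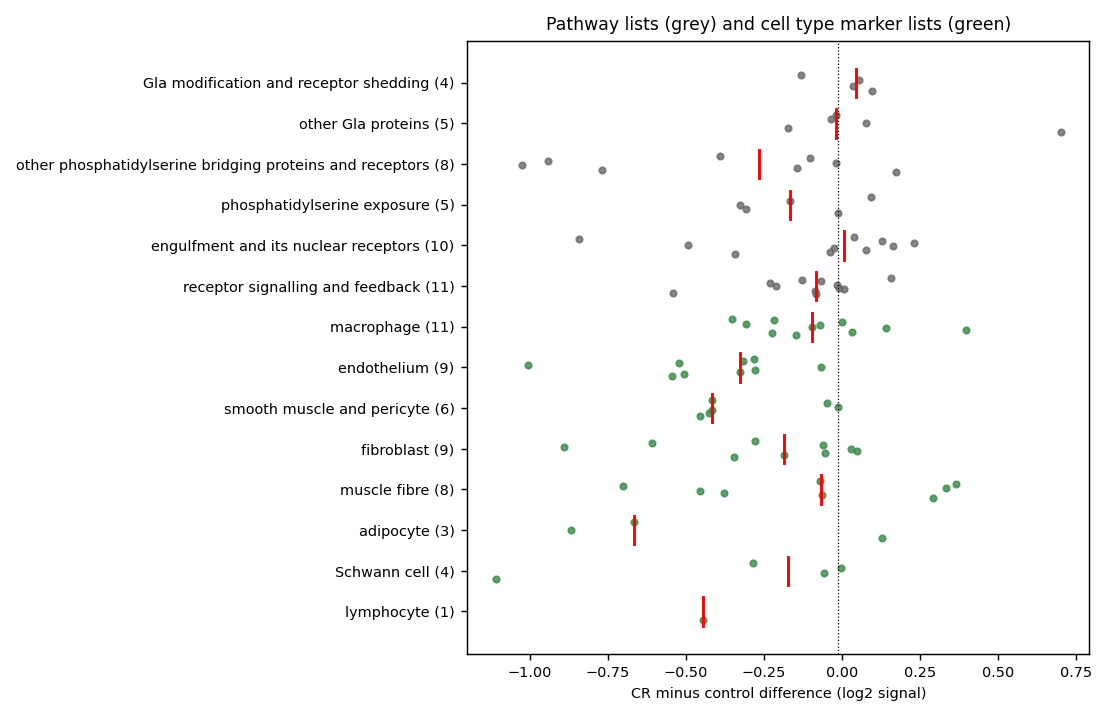
CR minus control difference in log2 signal of each tested gene (points, brightest probe set) in the 6 pathway lists and 8 cell type marker lists, with the number tested in brackets. Red lines are list medians and the dotted line is the median over all probe sets tested, -0.012. The plotted probe sets of the endothelium and the smooth muscle and pericyte markers all lie below 0, although further probe sets of VWF, CDH5, TEK, MYH11, CSPG4 and NOTCH3, not plotted, lie above 0, while medians of the pathway lists lie between -0.27 and 0.045.

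The genes most like each member across the 13 animals, with diet means removed, came out of 9811 other genes and are given with no p. For GAS6 by probe set MmugDNA.20377.1.S1_at they were KIRREL1 (r = 0.95), TNS2 (0.92), which encodes the focal adhesion protein tensin 2, and PKN3 (0.91). For the other GAS6 probe set they were KTN1 (0.91), NOP9 (0.89) and NVL (0.86), none of them shared with the first. For PROS1 they were HACD2 (0.98), an enzyme of very long fatty acid synthesis, ADD3 (0.98), a membrane skeleton adducin, and CYBRD1 (0.97), a ferric reductase. For AXL they were the protease gene CTSK (0.98), S100A6 (0.98) and the actin-binding drebrin gene DBN1 (0.97). MERTK was most like GIGYF1 (0.96), CRTAC1 (0.91) and GPLD1 (0.89), and TYRO3 most like SLC43A1 (0.89), TUSC1 (0.86) and SERPINE2 (0.83). In the order of likeness to PROS1, AXL had the rank 157, and in the order of likeness to AXL, PROS1 had the rank 123. Many other genes on these arrays thus followed PROS1 or AXL more closely than the 2 followed each other.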

How the data were processed

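Each array's deposited values are intensity values, 1 linear signal per probe set. The authors made them with MAS5, according to the submitters' processing notes. Its version, the genome build and any batch or date are not given in the sources used here. Every array had a 2% trimmed mean of 500, so a change common to most transcripts of an animal is removed by this scaling.

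Signals were floored at 1 and log2 transformed. After removal of 99 control probe sets, the dimmer 50% by mean log2 signal were left out, and 26383 remained. Symbols come from the platform annotation, from probe sets with 1 symbol only. The diets were compared over all remaining probe sets with limma (version 3.58.1, R 4.3.3), by lmFit and by eBayes with a trend. SEs of the dim MERTK probe set come from the fit without the filter. Correlations were computed with numpy 2.4.6 on signals with diet means removed, and those between probe sets of one gene were added after seeing the data. The limma fit was tested on simulated data. The members and lists were chosen with earlier results of these data known. Named genes were every member probe set, in each pathway list the gene with the lowest p in each direction, and the 3 genes most like each member. Pearson's r between arrays was 0.834 to 0.940, so no array was a copy of another. Tried alternatives were other normalization, offset, filters, probe set rules, covariates, a replicate block and leaving out animals.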

Additional observations from a re-analysis of the deposited data

Results flagged for a closer look

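Among the 9 probe sets and 8 marker scores, each taken per diet, 5 of 34 groups had 1 animal standing apart from the others by Dixon's gap, and chance gives about 1 in 20. Scores in this paragraph are mean z scores with diet means kept. Control replicate 4 had the highest log2 signal of GAS6 probe set MmugDNA.20377.1.S1_at among controls, 11.8, and the highest smooth muscle and pericyte score, 1.74. With diet means removed, as in the correlations, that score was 1.55. CR replicate 4 had the lowest log2 signal of AXL probe set MmugDNA.5161.1.S1_at in CR, 7.62. Control replicate 5 had the lowest log2 signal of MERTK probe set MmugDNA.20110.1.S1_at among controls, 5.12. Control replicate 1 had a lymphocyte score of -0.0918, apart from the other controls, but this score holds 1 gene.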

How the results depend on the processing

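The 70 differences recomputed under other settings include the average of a gene's probe sets, counted once for each of its probe sets. Of these 70, 64 kept the direction of the probe set, not counting the fits that left out 1 animal each. In those 13 fits PROS1 and the dim MERTK probe set kept their direction in 12 and TYRO3 in 11. The other member probe sets kept it in all 13. With RNA quality ratios as covariates, the difference was -0.16 for PROS1, -0.091, -0.12 and 0.44 for the AXL probe sets in the order given above, -0.16 for the brighter MERTK probe set and 0.38 for TYRO3. With a gene's probe sets averaged per animal, the difference was -0.072 for GAS6 and 0.051 for AXL. Animals of the 2 diets that share a number deviated with r from -0.20 to 0.020, above 0.1 in 0 of 5 pairs. The labels do not say whether the numbers pair animals, and r across whole arrays cannot settle it. CR replicates 6, 7 and 8 share no number with a control and do not inform the diet difference under the replicate block. That fit compares the 5 CR and 5 control animals that share numbers. Its differences were -0.60 and 0.53 for the 2 GAS6 probe sets, -0.051 for PROS1, and -0.035 and -0.034 for the first 2 AXL probe sets. For MERTK they were -0.33 and -0.27. In the block fit, 389 probe sets had an unadjusted p under 0.05, against 641 in the main fit with all animals. That count was 1783 without the filter and 260 with the brightest 25% only, and 505 to 1216 with each animal left out. Under limma's adjusted threshold, 0 or 1 probe sets passed with each animal left out, 1 without control replicate 1 or 5.

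Of 10 pairs of genes, 3 passed, and 1 in CR animals only. With RNA quality ratios as covariates 4 passed on Pearson's r and 1 on rank order. Their r was 0.785 for GAS6 and PROS1, 0.752 for GAS6 and AXL, 0.893 for PROS1 and AXL, and 0.705 for AXL and MERTK. With probe sets averaged, without the 2 farthest animals, and without control replicate 4 and CR replicate 2, 0 passed, and 2, 3 and 4 pairs had an unadjusted permutation p under 0.05. With each animal left out, 1 to 3 passed. GAS6 and PROS1 had r = 0.699 after quantile normalization, 0.653 in CR animals, 0.647 with probe sets averaged, 0.0071 without the 2 farthest animals or without control replicate 4 and CR replicate 2, -0.206 by the other GAS6 probe set, and 0.519 to 0.762 with each animal left out. PROS1 and AXL had r = 0.836 to 0.932 with each animal left out, 0.638 with probe sets averaged, and 0.789 without the 2 farthest animals or without control replicate 4 and CR replicate 2. AXL and MERTK had 0.677 in CR animals, 0.442 without the 2 farthest animals and 0.442 with probe sets averaged, 0.745 without control replicate 4 and CR replicate 2, and 0.621 to 0.918 with each animal left out.

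Of 20 relations with marker scores 7 passed. In CR animals only 3 passed, without the 2 farthest animals 3, with probe sets averaged 3, and with RNA quality ratios 5. Without control replicate 4 and CR replicate 2 the count was 4, and with each animal left out 4 to 7. GAS6 with endothelium had r = 0.725 without the 2 farthest animals and -0.134 by its other probe set. GAS6 with smooth muscle and pericyte had 0.637 in CR animals, 0.663 with probe sets averaged, -0.302 by its other probe set, 0.72 without control replicate 4 and CR replicate 2, and 0.648 to 0.879 with each animal left out. PROS1 with fibroblast had 0.663 in CR animals, 0.465 without the 2 farthest animals, 0.744 with the probe sets of the other genes averaged, 0.691 with RNA quality ratios as covariates, 0.635 without control replicate 4 and CR replicate 2, and 0.558 to 0.82 with each animal left out. AXL had 0.64 with macrophage when probe sets were averaged, which no longer passed (adjusted permutation p = 0.0974), and with fibroblast 0.735 in CR animals and 0.671 without the 2 farthest animals. MERTK with macrophage had 0.766 in CR animals, 0.546 without the 2 farthest animals, 0.458 with probe sets averaged, 0.6 with RNA quality ratios, 0.644 without control replicate 4 and CR replicate 2, and 0.601 to 0.797 with each animal left out. The cause of these changes was not tested, beyond the smaller number of animals where some were left out. Chosen after seeing the data were the other GAS6 probe set, RNA quality ratios in correlations, and leaving out both control replicate 4 and CR replicate 2.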
